A study of Homo sapiens with 6 samples.

Results

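The genes encoding the proteins of the cytosolic ribosome, other than RPS3 itself, were followed through knockdown of RPS3 and of p65 in stimulated T cells. Members were all genes whose symbol on the array was RPS or RPL followed by a number, with an optional letter, L, X or Y ending, or RPLP0, RPLP1, RPLP2 or RPSA. RPS3, the RPS6K kinases and pseudogenes were left out. The array held 27 such genes, 13 of the small and 14 of the large subunit, read by 66 probes, among 4604 named genes and 8797 tested features (genes or unnamed probes). All 27 had values on at least 2 of 3 arrays of each siRNA, and RPL10 was the single member with a blank, on the RPS3 siRNA array at 1 h.

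The cells were of the Jurkat line, grown from a human T-cell leukaemia, and received siRNA against RPS3, siRNA against p65 (RELA, a subunit of the transcription factor NF-kB) or a nonspecific control siRNA. All cells, controls included, were then stimulated through the T-cell receptor for 1, 3 or 6 h with anti-CD3/CD28 (1 ug). Each of the 6 two-colour arrays carried Cy5-labelled RNA of an siRNA and Cy3-labelled RNA of control siRNA at the same time, giving 3 arrays per siRNA, 1 per time. The labels do not say whether both siRNAs were set against the same control RNA, how strongly either protein was depleted, or whether separate cultures stand behind the arrays. The p-values therefore reflect the spread of these 6 arrays alone. Within an siRNA that spread mixes change over the 3 times with differences that may be technical. Each SD over the arrays of an siRNA does the same.

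A ribosome holds 1 copy of most of its proteins, and the small subunit reads the message while the large subunit joins amino acids. RPS3 sits in the head of the small subunit, at the channel where the message enters, and it is also known as a partner of p65. Most ribosomal protein messages begin with a terminal oligopyrimidine (TOP) tract, a C followed by a run of C and T bases, through which their translation is controlled together by growth signals. Activated T cells are known to raise ribosome production before they divide.

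The sequences below show that shared start, the feature by which these genes form a regulated class. They were taken from RefSeq on build GRCh38.p14, run 5′ to 3′ on the sense strand from 15 bases before to 15 bases after the annotated start, and the capitals mark the pyrimidine run that begins at the start. RPS16, RPS12, RPS6, RPS9, RPS25 and RPLP1 are shown because results below turn on them, RPL22L1 as a paralog, and RPS29, RPS4X and RPL7L1 because they have no such run at the annotated base.
RPS16, chr19:39435935-39435964, minus strand: gtggcccctagctttCCTTTTCCggttgcg
RPS12, chr6:132814554-132814583, plus strand: gcgtgcggatgaggcCTCTTTCCCTgccgc
RPS6, chr9:19380222-19380251, minus strand: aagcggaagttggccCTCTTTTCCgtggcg
RPS9, chr19:54200843-54200872, plus strand: gtggcgcttccgcgcCTCTTTCTCagtgac
RPS25, chr11:119018329-119018358, minus strand: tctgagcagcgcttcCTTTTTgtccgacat
RPLP1, chr15:69452803-69452832, plus strand: gtataggcgcgagagCCCCTTTCCTCagct
RPL22L1, chr3:170870181-170870210, minus strand: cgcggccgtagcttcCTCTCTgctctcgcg
RPS29, chr14:49598696-49598725, minus strand: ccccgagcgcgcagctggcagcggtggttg
RPS4X, chrX:72277234-72277263, minus strand: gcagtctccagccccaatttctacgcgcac
RPL7L1, chr6:42879601-42879630, plus strand: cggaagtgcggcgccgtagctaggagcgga

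RefSeq promoter entries matched 21 of the 27 members. A C followed by at least 4 pyrimidines stood exactly at an annotated start in 16 of the 21 (76.2%), against 5.14% of all 27305 genes in the same table. The letters CGGAAG, on either strand, were found between 250 bases before and 50 bases after the start in 14 of 21 members (66.7%), against 22.6% of all genes. The NF-kB consensus site was found in 0 of 21 members and in 9.16% of all genes, which says only that those letters are not in these windows. Median GC content of the windows was 58.7% in members and 58.3% over all genes.

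Values are log2 ratios, siRNA over control, after each array was centred on its median. Both the log base and the direction were read from the values and the dyes and were not stated, so the direction is likely rather than settled. With the sign turned, each count above 0 would be a count below 0, and RPS3 would lie above control under its own siRNA. RPS3 itself, read by 1 probe, stood at -2.50, -2.53 and -1.44 after 1, 3 and 6 h of RPS3 siRNA, against 0.11, 0.01 and 1.11 of p65 siRNA (difference -2.57, limma adjusted p = 0.971, or 0.0395 with time as a block). RELA averaged -0.54 ± 0.15 on the RPS3 siRNA arrays and -0.49 ± 0.09 on the p65 siRNA arrays (SD, n = 3 each), so the level of RELA did not tell the p65 siRNA arrays from the RPS3 siRNA arrays (difference -0.05, adjusted p = 1 by limma). Over all probes the arrays did not group by siRNA or strictly by time. The 6 h arrays of both siRNAs correlated at 0.69, RPS3 siRNA at 1 h with p65 siRNA at 3 h at 0.47, and RPS3 siRNA at 3 h with p65 siRNA at 1 h at 0.46, while arrays matched at 1 h gave 0.12 and at 3 h 0.20. The database experiment numbers in the labels form 2 consecutive series, called runs here, and RPS3 siRNA at 3 h and p65 siRNA at 1 h make up run 1. Ratios carry no level, so the T-cell identity could not be checked. The 12 T-cell markers tested had median log2 ratios of 0.12 with RPS3 siRNA and -0.01 with p65 siRNA, and the 13 markers of other cell types tested had -0.03 with RPS3 siRNA and 0.13 with p65 siRNA.

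Ribosomal protein messages lay near the array median at 1 and 3 h of RPS3 knockdown and above it at the same times of p65 knockdown. On the RPS3 siRNA arrays 14 of 26 members lay above 0 at 1 h, 14 of 27 at 3 h and 9 of 27 at 6 h. On the p65 siRNA arrays the counts were 23, 21 and 13 of 27. The background was flat, with 50.0% to 51.4% of all features above 0 on each of the 6 arrays. In bulk RNA, a change in the message per cell and a change in the makeup of the culture cannot be told apart.

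The small subunit median was -0.02 at 1 h, -0.01 at 3 h and -0.29 at 6 h with RPS3 siRNA, against 0.35, 0.21 and 0.01 with p65 siRNA. The large subunit median was 0.02, 0.01 and -0.19 with RPS3 siRNA, against 0.32, 0.14 and -0.07 with p65 siRNA. Both subunit medians thus lay lower under RPS3 siRNA at every time, and both stood lowest at 6 h. The small minus the large median was -0.03, -0.02 and -0.10 on the RPS3 siRNA arrays and 0.03, 0.07 and 0.08 on the p65 siRNA arrays. Members of a subunit ranged over 0.51 to 1.56 log2 units on 1 array, and the difference between the subunits was not tested.

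**Figure D1:**
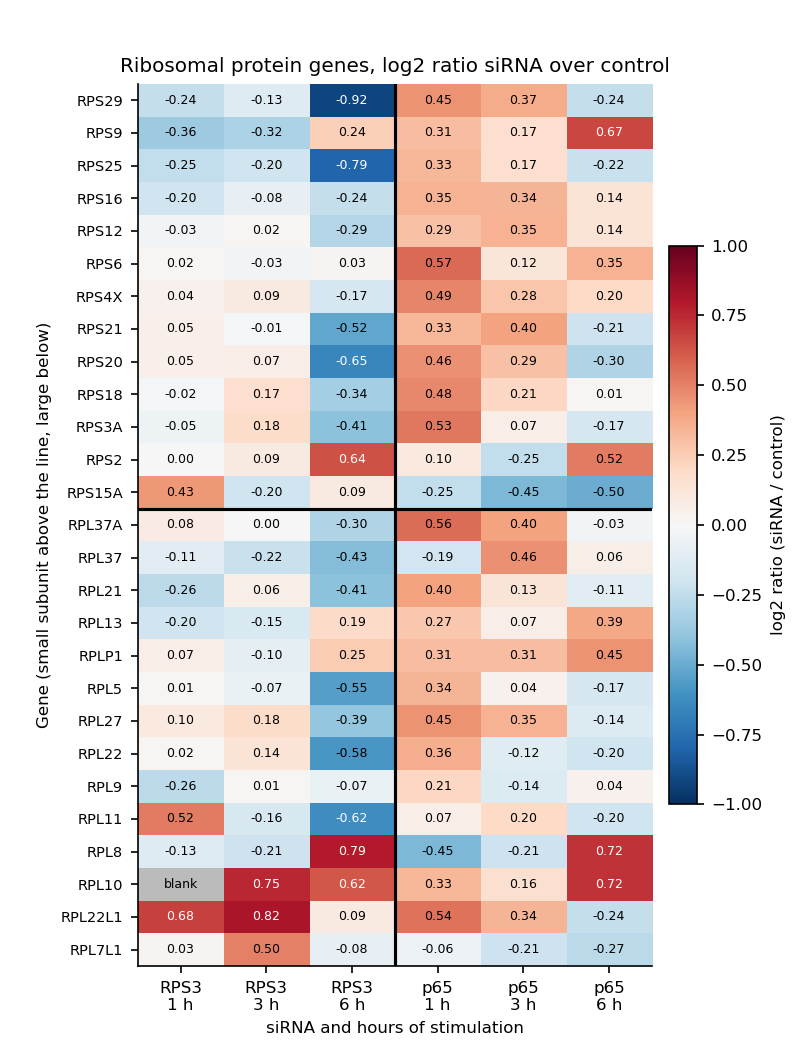
Log2 ratio (siRNA over control) of each of the 27 genes in rows, on the 3 RPS3 siRNA arrays (left) and the 3 p65 siRNA arrays (right) in columns, with small subunit genes above the line. Most genes are pale or blue on the left and red on the right at 1 and 3 h, while RPS2, RPS9 and RPL8 are red and RPS29, RPS25 and RPS20 blue on both 6 h arrays.

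**Figure D2:**
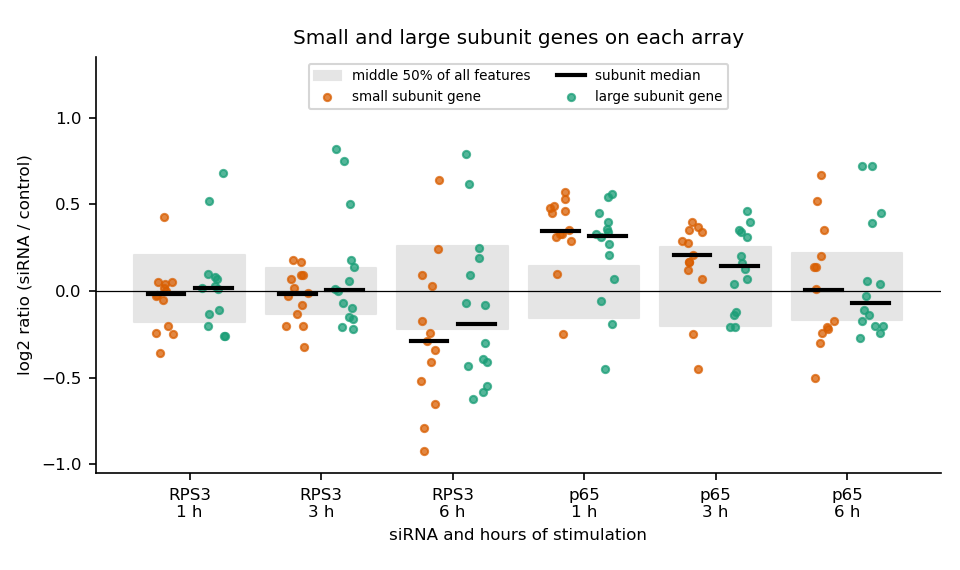
Log2 ratio of small (orange) and large (green) subunit genes on each array, 1 point per gene, with black bars at the subunit medians and grey boxes for the middle 50% of all features. Small subunit medians run from -0.29 to -0.01 on RPS3 siRNA arrays and from 0.01 to 0.35 on p65 siRNA arrays.

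The first comparison set RPS3 siRNA against control siRNA. Of the small subunit genes 10 of 13 had a mean below 0, with a median of -0.10, and of the large subunit genes 9 of 14, with a median of -0.06. Over all features the median was 0.02 and 54.2% lay above 0. No member passed: limma called 0 of 8797 features (0%) and the lowest adjusted p of a member was 0.492. At an unadjusted p under 0.05 stood 1 lower member, RPS25, and 2 higher ones, RPL10 and RPL22L1, against 3.98% of all features lower and 3.73% higher. Without the 6 h RPS3 siRNA array the medians were 0.02 and 0.01 and 13 of 27 members lay below 0. The share of all features below 0 in that setting was not counted.

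RPS29, a small zinc-binding protein of the subunit head, read -0.24, -0.13 and -0.92 at 1, 3 and 6 h of RPS3 siRNA, a mean of -0.43 ± 0.43 (SD, n = 3; adjusted p = 0.66). RPS25, a head protein needed by some viral internal ribosome entry sites, read -0.25, -0.20 and -0.79 and averaged -0.41 ± 0.33 (adjusted p = 0.618). Both lay below 0 on all 3 RPS3 siRNA arrays, as did RPS16 and RPL37. That makes 3 of 13 small and 1 of 13 large subunit genes with complete values, while 15% of all features did the same. The lowest large subunit means were those of RPL37, a zinc-binding protein, at -0.25 ± 0.16, and RPL21 at -0.21 ± 0.24.

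RPL22L1, the paralog of RPL22, read 0.68, 0.82 and 0.09 with RPS3 siRNA and averaged 0.53 ± 0.39 (adjusted p = 0.618). Its partner RPL22, which in mice is needed for the development of alpha-beta T cells, read 0.02, 0.14 and -0.58. RPL22L1 thus lay above RPL22 on each of the 3 RPS3 siRNA arrays. With p65 siRNA it also lay above RPL22 at 1 h (0.54 against 0.36) and 3 h (0.34 against -0.12), but not at 6 h (-0.24 against -0.20). Each gene was read by 1 probe. RPL10, a protein added late in the making of the large subunit and mutated in some T-cell leukaemias, had 0.75 at 3 h and 0.62 at 6 h, a mean of 0.69 ± 0.09 over 2 arrays, since its single probe was blank at 1 h (adjusted p = 0.492). RPS2, a protein of the message entry channel, averaged 0.25 ± 0.35, and its mean rested on the 6 h array, at 0.64 against 0.00 and 0.09. RPL8, which lies close to the peptidyl transferase centre, averaged 0.15 ± 0.55.

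The second comparison set p65 siRNA against control siRNA. Here 12 of 13 small and 13 of 14 large subunit genes had a mean above 0, with medians of 0.19 and 0.13, against a median of 0.02 over all features and 55.8% of them above 0. Again limma called 0 of 8797 features (0%), and the lowest adjusted p of a member was 0.919. Unadjusted, RPS16, RPS4X, RPS6, RPS9, RPL10 and RPLP1 were higher and RPS15A was lower, against 2.65% of all features higher and 2.41% lower. Above 0 on all 3 p65 siRNA arrays lay 6 of 13 small and 3 of 14 large subunit genes, where 13.4% of all features did so.

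RPS9, the counterpart of bacterial S4 in the body of the small subunit, read 0.31, 0.17 and 0.67 at 1, 3 and 6 h of p65 siRNA, a mean of 0.38 ± 0.26 (adjusted p = 0.919). RPS6, the small subunit protein phosphorylated by S6 kinases, read 0.57, 0.12 and 0.35 and averaged 0.35 ± 0.23. RPLP1, an acidic protein of the stalk that recruits elongation factors, read 0.31, 0.31 and 0.45 and averaged 0.36 ± 0.08, one of the narrower spreads in the group. RPL37A averaged 0.31 ± 0.30, with 0.56 and 0.40 at 1 and 3 h and -0.03 at 6 h.

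With p65 siRNA 2 members had means below 0, and 8 did without the 1 h array. The share of all features below 0 without that array was not counted. RPS15A, the counterpart of bacterial S8, read -0.25, -0.45 and -0.50 and averaged -0.40 ± 0.13 (adjusted p = 0.919). RPL7L1, the paralog of RPL7, read -0.06, -0.21 and -0.27 and averaged -0.18 ± 0.11. Both had a single probe, and both lay below 0 on every p65 siRNA array, as 9.39% of all features did. The members closest to 0 were RPL22 at 0.01 ± 0.30 and RPL8 at 0.02 ± 0.62.

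The knockdowns were then set against each other, as RPS3 siRNA minus p65 siRNA, which removes any dye bias that the 6 arrays share. The difference was below 0 for 11 of 13 small subunit genes, with a median of -0.34, and for 10 of 14 large subunit genes, with a median of -0.20. Over all features the median was 0.00 and 49.4% lay above 0. No member passed: limma called 0 of 8797 features (0%), and unadjusted only RPS16 and RPS9 were lower and RPS15A higher, against 1.25% and 1.1% of all features. RPS3 siRNA lay below p65 siRNA at every time for 10 of 13 small and 6 of 13 large subunit genes, against 15.9% of all features with complete values. These counts, and every difference at a time, take the labelled times as given, and exchanged 1 h and 3 h labels within an siRNA would alter them. RPS3 siRNA lay above p65 siRNA at every time for RPS15A, RPL22L1, RPL7L1 and RPL8, against 12.9% of features. For RPL8 the difference at 3 h was only 0.01. Within run 1 (1 array each) the median difference was -0.39 for small and -0.23 for large subunit genes, and within run 2 (2 arrays each) it was -0.31 and -0.16. In run 1 the times of the siRNAs differed, and in run 2 only the 6 h arrays were matched in time. The differences at 1 h and at 3 h were therefore each taken between runs, and only that at 6 h within a run.

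The lowest small subunit differences belonged to RPS29, RPS9 and RPS25. RPS29 differed by -0.69, -0.49 and -0.68 at 1, 3 and 6 h, a mean of -0.62 ± 0.11 (SD over times). RPS9 differed by -0.67, -0.49 and -0.43, a mean of -0.53 ± 0.12, and RPS25 by -0.58, -0.37 and -0.57, a mean of -0.51 ± 0.12. These genes are given because their differences were the lowest, and the fit, which does not match times, gave an adjusted p of 1 for all 3. With time as a block the lowest adjusted p of a member was 0.843. The arrays of the siRNAs overlapped for each of these genes when times were not matched. RPS29 read 0.45, 0.37 and -0.24 with p65 siRNA, and RPS25 read 0.33, 0.17 and -0.22. RPS9 read -0.36, -0.32 and 0.24 with RPS3 siRNA, against the p65 siRNA values given above.

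All RPS3 siRNA arrays lay below all p65 siRNA arrays for 5 members, RPS12, RPS16, RPS4X, RPS6 and RPLP1, while 4.82% of all features did so. RPS16, a head protein whose tail reaches the P-site tRNA, read -0.20, -0.08 and -0.24 with RPS3 siRNA, against 0.35, 0.34 and 0.14 with p65 siRNA. It was the 1 member below 0 on every RPS3 siRNA array and above 0 on every p65 siRNA array, a pattern of 1% of all features, with a difference of -0.45 ± 0.09 (limma adjusted p = 1). RPS12, a protein of the head's beak, read -0.03, 0.02 and -0.29 with RPS3 siRNA, against 0.29, 0.35 and 0.14 with p65 siRNA. RPS4X, the X-linked S4 gene, read 0.04, 0.09 and -0.17 with RPS3 siRNA, against 0.49, 0.28 and 0.20 with p65 siRNA. For RPS6 the RPS3 siRNA values of 0.02, -0.03 and 0.03 hardly left 0, and the difference of -0.34 came from the p65 siRNA arrays.

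RPS15A ran the other way, with 0.43, -0.20 and 0.09 on the RPS3 siRNA arrays and the p65 siRNA values given above. Its difference was 0.51 ± 0.23 (adjusted p = 1), and all its RPS3 siRNA arrays lay above all its p65 siRNA arrays, as 3.11% of all features did. RPS3A, a platform protein, read -0.05, 0.18 and -0.41 with RPS3 siRNA, against 0.53, 0.07 and -0.17 with p65 siRNA. It differed by -0.24 ± 0.35 and RPS2 by 0.12 ± 0.22, and neither held its sign at all times.

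In the large subunit the lowest differences were those of RPL37A (-0.38 ± 0.10), RPL37 (-0.36 ± 0.39) and RPL21 (-0.35 ± 0.30). The highest were RPL7L1 (0.33 ± 0.33), RPL22L1 (0.32 ± 0.17) and RPL8 (0.13 ± 0.17), beside RPL10 at 0.29 with its blank. RPL7L1 read 0.03, 0.50 and -0.08 with RPS3 siRNA. RPL22L1 read 0.54, 0.34 and -0.24 with p65 siRNA, below its RPS3 siRNA value at each time. RPL21 read -0.26, 0.06 and -0.41 with RPS3 siRNA, against 0.40, 0.13 and -0.11 with p65 siRNA. RPL37A read 0.08, 0.00 and -0.30 with RPS3 siRNA, and RPLP1 read 0.07, -0.10 and 0.25. RPL37 read -0.11, -0.22 and -0.43 with RPS3 siRNA, against -0.19, 0.46 and 0.06 with p65 siRNA, so its sign turned at 1 h. RPL22 read 0.36, -0.12 and -0.20 with p65 siRNA.

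**Figure D3:**
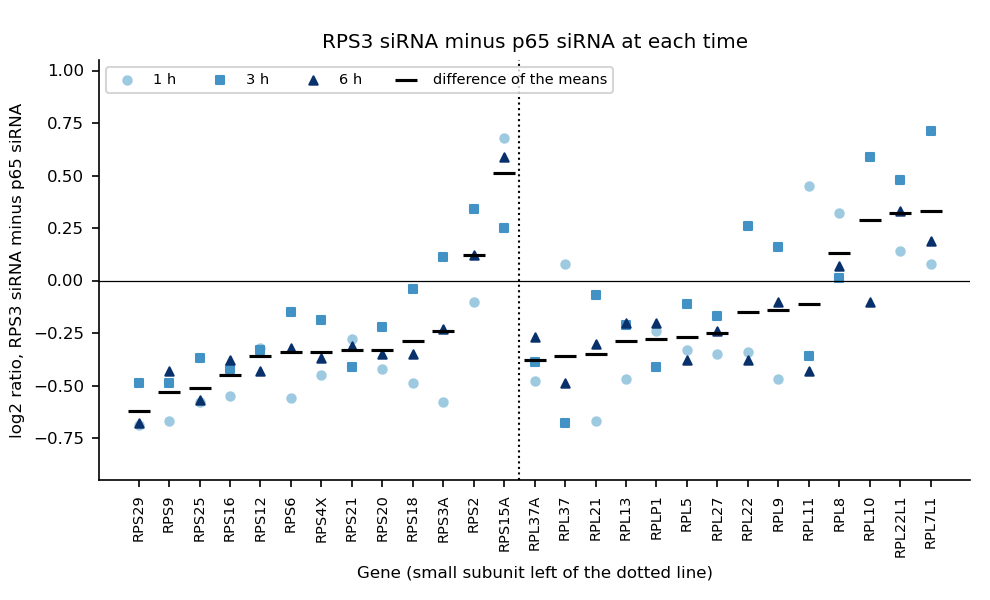
Log2 ratio with RPS3 siRNA minus that with p65 siRNA at 1, 3 and 6 h (points) and as the difference of the means (bars), for each gene, small subunit left of the dotted line. RPS29, RPS9 and RPS25 lie between -0.69 and -0.37 at every time, and RPS15A between 0.25 and 0.68.

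By place in the ribosome, the 6 head proteins tested of 13 listed all had a difference below 0. Their median was -0.40 and their range -0.62 to -0.29, while 49.4% of all features had a difference above 0. Of the 7 body and platform proteins tested of 17 listed, 5 lay below 0, with a median of -0.33 and a range of -0.53 to 0.51. The head group's medians with RPS3 siRNA were -0.12, -0.03 and -0.49 at 1, 3 and 6 h, against 0.40, 0.32 and -0.11 with p65 siRNA. The body and platform medians were 0.02, -0.01 and 0.03 with RPS3 siRNA, against 0.33, 0.12 and 0.20 with p65 siRNA. At 6 h 0 of 6 head proteins lay above 0 with RPS3 siRNA and 3 with p65 siRNA, while 4 of 7 body and platform proteins did so with each siRNA. The shares of all features above 0 were 50.1% with RPS3 siRNA and 51.4% with p65 siRNA. These groups are small, they were chosen with earlier results of these data known, and the difference between them was not tested. Nor do they sort genes by nearness to RPS3. RPS2, placed above at the message entry channel like RPS3, was counted in the body and differed by 0.12.

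RPL5 and RPL11 carry the 5S RNA into the large subunit and, when free, bind the p53 regulator MDM2. RPL5 read 0.01, -0.07 and -0.55 with RPS3 siRNA, against 0.34, 0.04 and -0.17 with p65 siRNA. RPL11 read 0.52, -0.16 and -0.62 with RPS3 siRNA, against 0.07, 0.20 and -0.20 with p65 siRNA. Both stood lowest at 6 h with either siRNA, and RPL11 had the widest spread with RPS3 siRNA (SD 0.58). Among the stalk proteins only RPLP1 was on the array.

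At 6 h members lay on both sides of control. Both 6 h arrays lay below 0 for 12 members: RPS20, RPS21, RPS25, RPS29, RPS3A, RPL5, RPL11, RPL21, RPL22, RPL27, RPL37A and RPL7L1. Both lay above 0 for 7: RPS2, RPS6, RPS9, RPL8, RPL10, RPL13 and RPLP1. The signs differed between the siRNAs for the remaining 8 of 27. For all features the shares were 36.9% below and 37.7% above, so neither count sets the members apart. With RPS3 siRNA the SD among members was 0.24 at 1 h, 0.27 at 3 h and 0.44 at 6 h, against 0.26, 0.24 and 0.34 with p65 siRNA. Over all features the SD was 0.39, 0.23 and 0.43 with RPS3 siRNA, and 0.26, 0.45 and 0.35 with p65 siRNA. At 6 h the members thus spread about as widely as all features.

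RPL8 read -0.13, -0.21 and 0.79 with RPS3 siRNA, against -0.45, -0.21 and 0.72 with p65 siRNA. RPS2 read 0.00, 0.09 and 0.64 with RPS3 siRNA, against 0.10, -0.25 and 0.52 with p65 siRNA. RPS20, a head protein, went the other way, with 0.05, 0.07 and -0.65 with RPS3 siRNA, against 0.46, 0.29 and -0.30 with p65 siRNA. For these 3 genes the 6 h value lay outside the range of the other 2 times with both siRNAs. The same held for most members with complete values, but not for RPS6, RPS15A, RPL37 and RPL9. The share over all features was not counted. At 6 h RPS9 stood at 0.24 with RPS3 siRNA, against -0.36 and -0.32 at the earlier times.

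The hourly slope of the ratios, fitted over both siRNAs together, was below 0 for 11 of 13 small and 9 of 14 large subunit genes, with a median of -0.05 in each subunit and 0.00 over all features. limma called 0 of 8797 features (0%), and the lowest adjusted p of a member was 0.189, shared by RPL8 (slope 0.22 ± 0.05, SE), RPS20 (-0.15 ± 0.04) and RPL22L1 (-0.14 ± 0.04). Unadjusted, 5 small and 6 large subunit genes had a negative slope, against 7% of all features, and 2 small and 1 large a positive one, against 12.1%. Without the p65 siRNA 1 h array 301 features were called and the lowest adjusted p of a member was 0.0616. Without both 6 h arrays 19 members had a negative slope, but not all the same ones, and the share of all features was not counted. RPL10 (-0.08) and RPL13 (-0.04) turned negative, while RPL21 (0.01) and RPL37 (0.13) turned positive. RPL11 stayed at -0.14, while RPL8 had 0.04, RPS20 -0.04 and RPL22L1 -0.01. The 6 h arrays resembled each other over all probes and had 15.1% (RPS3 siRNA) and 14.8% (p65 siRNA) blank probes, against 5.4% to 10.1% on the other 4. The T-cell markers had 6 h medians of 0.52 with RPS3 siRNA and 0.30 with p65 siRNA. On each 6 h array 10 of 12 lay above 0, against 50.1% (RPS3 siRNA) and 51.4% (p65 siRNA) of all features. At an unadjusted p under 0.05 in limma 8 of the 12 had a positive slope, against 12.1% of all features. The part of these values in the members' slopes was not tested.

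**Figure D4:**
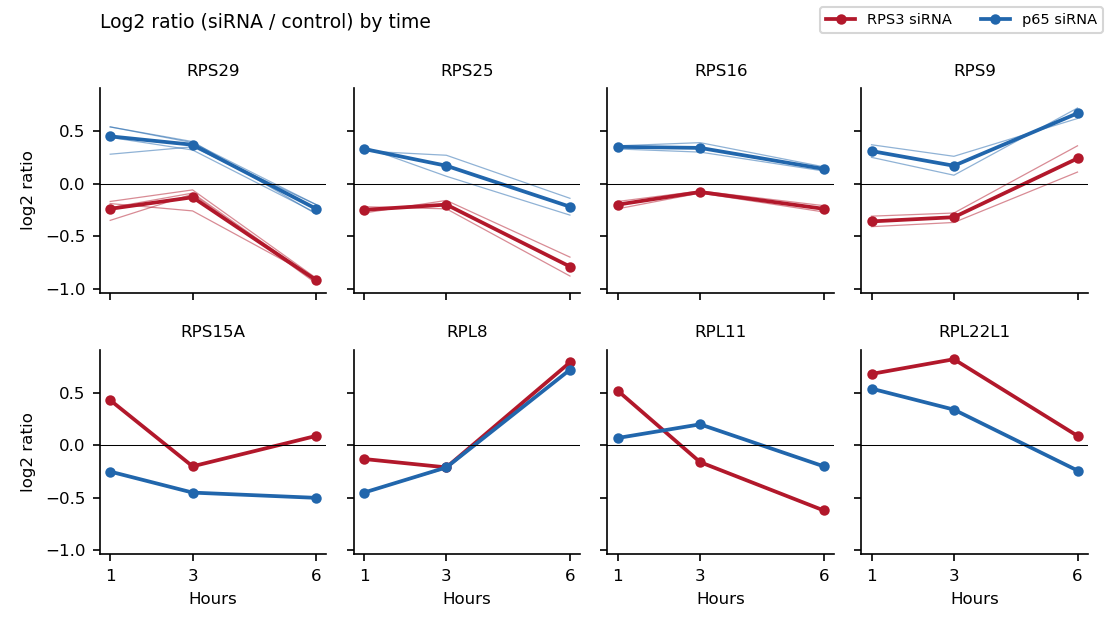
Log2 ratio (siRNA over control) against hours of stimulation for 8 genes, with RPS3 siRNA in red and p65 siRNA in blue. Thick lines with points give the gene and thin lines its single probes, 1 array per point. RPS29 and RPS25 reach their lowest values at 6 h with both siRNAs, RPL8 its highest, and RPS16 keeps its red line below 0 and its blue line above 0.

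The probes allow a check within each array, because 17 members were read by several probes and 10 by 1. Of those 56 probes, 11 of them for RPL13, 53 had a lower mean with RPS3 siRNA than with p65 siRNA. The share over all probes was not counted, and over all features 49.4% had a difference above 0. The count repeats the differences of the genes already given and adds no separate evidence. Of the 10 genes with 1 probe only 5 had a lower mean, and RPS15A, RPL7L1, RPL8, RPL10 and RPL22L1 had a higher one. Probes of a gene share its message and its array, so they are not replicates of a condition. The range among probes of a gene on an array had a median of 0.15 log2 units over the 17 genes. The 4 probes of RPS29 read between -0.95 and -0.90 on the RPS3 siRNA array at 6 h, against -0.29 to -0.20 with p65 siRNA. The 11 probes of RPL13 all had a negative difference, from -0.59 to -0.06, although they spread from -0.21 to 0.39 at 6 h of RPS3 siRNA.

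The median range among probes exceeded the gene's own difference for 5 genes, RPS2, RPS3A, RPL5, RPL13 and RPL37. On the p65 siRNA array at 6 h the 3 probes of RPS2 ran from 0.01 to 1.02. One probe of RPL37 read -0.39, -0.32 and -0.88 with RPS3 siRNA, against 0.40, 0.46 and -0.07 with p65 siRNA. The other probe read 0.18, -0.12 and 0.03 with RPS3 siRNA, against -0.77 and 0.20 at 1 and 6 h of p65 siRNA, and was blank at 3 h. The mean of RPL37 at 3 h of p65 siRNA therefore rested on 1 probe. Ribosomal protein genes have many processed pseudogenes, and reads of near-identical copies by these probes were not tested.

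**Figure D5:**
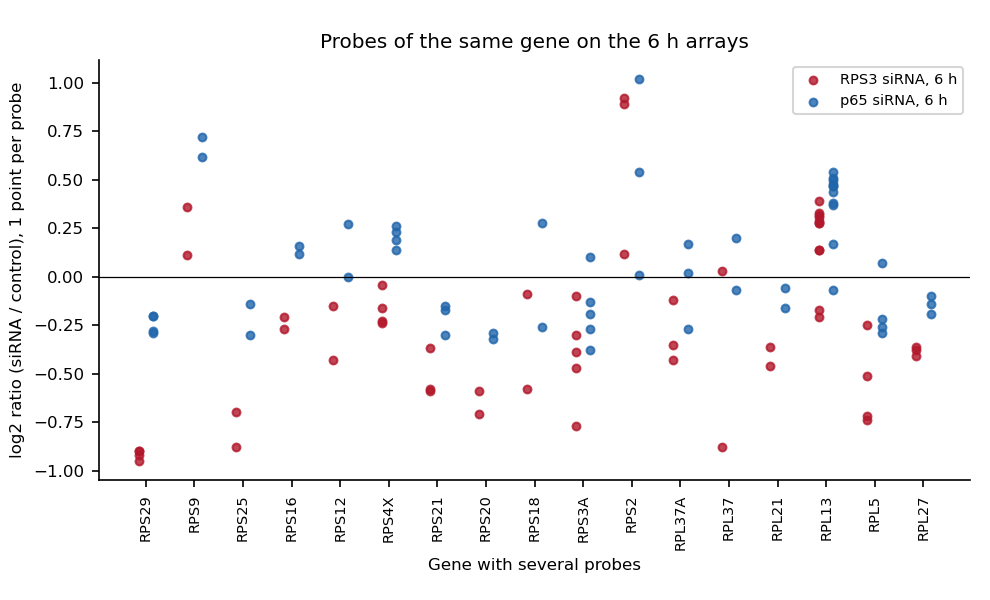
Log2 ratio (siRNA over control) of each probe on the 6 h arrays for the 17 genes with several probes, RPS3 siRNA in red left of p65 siRNA in blue. The red points of RPS29 lie between -0.95 and -0.90 and its blue points between -0.29 and -0.20, while the probes of RPS2 spread widely with both siRNAs and those of RPL37 with RPS3 siRNA.

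Other genes of the ribosome's pathway were compared by lists. Of 18 other genes whose messages carry a TOP tract 10 were tested, and 7 of them had a difference (RPS3 siRNA minus p65 siRNA) below 0. The median difference was -0.19, from -0.56 (TPT1) to 0.10 (HNRNPA1), while 49.4% of all features had a difference above 0. Their medians were 0.01 with RPS3 siRNA and 0.13 with p65 siRNA, and 0 passed in any of the 4 contrasts. TPT1, which encodes the translationally controlled tumour protein, read -0.31, -0.23 and -0.92 with RPS3 siRNA, against 0.46, 0.07 and -0.30 with p65 siRNA. EEF1A1, which brings aminoacyl-tRNA to the ribosome, read 0.01, -0.01 and -0.06 with RPS3 siRNA, against 0.45, 0.22 and 0.08 with p65 siRNA.

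The 11 mitochondrial ribosomal proteins tested had 10 means above 0 with RPS3 siRNA and 8 with p65 siRNA, medians of 0.12 and 0.10, and a median difference of 0.04, with 7 above 0. Of 40 listed ribosome assembly genes 14 were tested. Their median difference was 0.19, with 12 above 0, and their medians were 0.25 with RPS3 siRNA and 0.06 with p65 siRNA. At 6 h they stood at 0.76 with RPS3 siRNA and 0.26 with p65 siRNA, where the cytosolic ribosomal protein genes had medians of -0.29 and -0.03. Of all features 54.2% had a mean above 0 with RPS3 siRNA, 55.8% with p65 siRNA, and 49.4% a difference above 0. In both lists 0 genes passed in any contrast, and the contrast with the ribosomal protein genes was not tested.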

How the data were processed

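Per the labels, RNA was extracted with Trizol, reverse transcribed with oligo-dT priming and labelled with Cy3 (control siRNA) or Cy5 (RPS3 or p65 siRNA), with no dye swap named. The authors deposited 1 log ratio per probe, read here as log2. Image analysis, background correction, normalization and the rule behind blanks are not given in the sources used here. Channel intensities were not used, and precision is limited by having 6 arrays. The deposited medians lay between -0.019 and 0.007.

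Of 15246 probes, 10169 had 1 gene symbol in the platform annotation, 4 had several and 5073 had none. Arrays were median-centred, and the probes of a symbol averaged. The 8797 features with values on at least 2 of 3 arrays of each siRNA entered a limma fit (lmFit and eBayes, limma 3.58.1, R 4.3.3), the 3 times standing as replicates. Control RNA entered only as the other channel of each ratio, so its variation is part of the spread and was not estimated separately. An error common to all control samples would not show in that spread. Benjamini-Hochberg adjusted p-values under 0.05 over all features counted as passing. The fit was tested on simulated data. Lists are described by counts and medians without a test.

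The members and lists were chosen with earlier results of these data known. Values on every array were due for the 3 highest and 3 lowest members of each subunit by the difference and the 2 highest and 2 lowest by each siRNA's mean, among members with complete values. RPS12, RPS16, RPS20, RPS4X, RPL5, RPL10, RPL11, RPL13, TPT1 and EEF1A1 were added after their values were seen.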

Additional observations from a re-analysis of the deposited data

Results flagged for a closer look

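RPS16 is singled out because its log2 ratio lay below 0 on all 3 RPS3 siRNA arrays and above 0 on all 3 p65 siRNA arrays. The difference was -0.45 in the fit over all features, with a limma adjusted p of 1. The same pattern was found in 1% of all features with values on all 6 arrays. With 3 arrays per siRNA no single array was tested as standing apart from its group.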

How the results depend on the processing

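No member passed in any of the alternatives run (lowest adjusted p = 0.0616, for a slope without the p65 siRNA 1 h array). The difference stayed below 0 for 20 to 22 members across the alternatives counted by gene, and 23 members kept its sign whichever array was left out; RPL8, RPS2, RPL11 and RPL22 did not. Values as deposited changed the sign of 0 members. Quantile normalization changed 3 with RPS3 siRNA (RPL27, RPS4X and RPS6), 2 in the slope (RPL9 and RPL10), 0 with p65 siRNA and 0 in the difference. The time point as a block (replicate block) called 1 feature with RPS3 siRNA and 1 in the difference, both RPS3 itself, and changed no member's call. Only the 6 h arrays correlated best with the array of their own time, so time is not shown to pair the samples. It raised the unadjusted count in the difference to 483, against 207 without it. Features called with RPS3 siRNA were also 1 under quantile normalization and 1 without both 6 h arrays. With 1 array left out the calls ran from 0 to 1 for RPS3 siRNA, 0 to 1 for p65 siRNA, 0 to 0 for the difference and 0 to 301 for the slope, the 301 without the p65 siRNA 1 h array. The slope gave 1 call without both 6 h arrays. The causes were not tested.

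With 1 array left out, the small subunit median ran from -0.18 to 0.02 with RPS3 siRNA, from 0.11 to 0.34 with p65 siRNA, from -0.41 to -0.26 in the difference and from -0.07 to -0.05 in the slope. The large subunit median ran from -0.08 to 0.01, from 0.08 to 0.18, from -0.26 to -0.12 and from -0.08 to -0.04 in the same order. Small minus large ran from -0.10 to 0.00, from 0.03 to 0.16, from -0.19 to -0.11 and from -0.03 to 0.02. Without both 6 h arrays small minus large was 0.00 with RPS3 siRNA and 0.16 with p65 siRNA, and both slope medians were -0.03. Quantile normalization gave 0.11 for small minus large with p65 siRNA, -0.41 for the small subunit difference, and slopes of -0.09 (small) and -0.08 (large). The median over probes gave 0.11 for small minus large with p65 siRNA. Single probes gave -0.02 for it, against 0.07, so its sign depended on the averaging. They gave -0.07 for it in the difference, a small subunit slope of -0.09 and -0.05 for small minus large in the slope. Probes complete on all 6 arrays gave a large subunit slope of -0.10 and 0.05 for small minus large, and array run as a covariate gave -0.02. The fit on the compared siRNAs alone is the fit itself for the difference and the slope, and time as a block leaves no slope, so these were not run.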

Other observations

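Within the tested members, promoter GC content and the mean log2 ratio of the 6 h arrays had a Spearman rho of -0.09 (n = 21 genes, which share both arrays), and over all genes with a promoter entry it was 0.05 (n = 3531). The annotated pseudogene RPL21P106, left out by the rule, had 2 probes, and the one with values on all 6 arrays read 0.12, -0.03 and -0.31 at 1, 3 and 6 h of RPS3 siRNA, against -0.07, 0.58 and -0.43 with p65 siRNA.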
